A study of Mus musculus with 6 samples.

Results

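Wild type mouse embryonic fibroblasts, primary connective tissue cells grown out of minced embryos, were compared before and after a pulse of hydrogen peroxide (H2O2) on 2 of the 6 arrays of the series. Each of the 2 arrays set one biological replicate of treated wild type cells, labelled with Cy5, against its untreated partner, labelled with Cy3. The treated cells had received 0.5 mM H2O2 for 1 hour, after which the medium was replaced and RNA was taken 24 hours later, so the values describe recovered cells and not the first hours of the stress. By the labels the embryos were at day 15, and by the methods the mice were of a mixed 129/Sv and Black Swiss background. The remaining arrays enter as a comparison: 2 arrays of treated (Cy5) against untreated (Cy3) fibroblasts in which Wrn, the mouse homologue of the Werner syndrome gene, lacks part of its helicase domain, and 2 arrays of untreated cells of both genotypes. The labels give total RNA and the methods cytoplasmic RNA, and neither says how many embryos stand behind a replicate. All values below are log2 ratios of treated over untreated cells, called log2 fold changes, and those of the 2 arrays are given in the order replicate 1, replicate 2.

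Hydrogen peroxide crosses membranes, oxidizes protein thiols and lipids and damages DNA, and fibroblasts remove it with catalase, peroxiredoxins and glutathione peroxidases. A pair of transcription factors carries much of the slower response. NRF2, released from its inhibitor KEAP1 when cysteines of the latter are oxidized, induces genes of thioredoxin and glutathione metabolism, while ATF4, translated when the initiation factor eIF2 is phosphorylated, induces amino acid synthesis, transsulfuration and the regulators CHOP and TRIB3. Cells grown from whole embryos are also makers of extracellular matrix, and they build their membranes through the sterol pathway that SREBP2 controls.

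Of the 41174 non-control probes, 20716 were named through an accession and 5039 through the gene name in the file, which gave 17158 genes. The treated channel was the dimmer one. Cy5 rose well above background on 56.6% and 69.2% of spots, and Cy3 on 87.3% and 89.4%. The extraction software had marked 2.82% of the spots of replicate 1 and 22.6% of those of replicate 2 as outliers, and among probes with a mean log2 intensity of at least 6 the share on replicate 2 was 36.7%. These spots were left out, so a gene whose bright probe was marked on 1 array was not tested. For that reason each list below is given with the marked spots left out and with them kept. Across the probes marked on replicate 2 alone, the kept values of both arrays correlated with r = 0.688 (8018 probes), compared with r = 0.830 for 13515 probes marked on neither array (probes are not independent replicates).

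A gene was called by its brightest probe among those with a value on both arrays and a mean log2 intensity of at least 6. This probe had to pass an adjusted p of 0.05 and a fold change of 2 with the same sign on both arrays. Any other probe of the gene that met the conditions on value and intensity had to have that sign as well. In limma's fit over the 6 arrays, 43 of 7966 tested genes were higher (0.54%) and 60 were lower (0.753%) in treated cells, together 1.29%. Only 9 of the 43 and 11 of the 60 had more than 1 such probe, so most calls rest on a single probe. With the marked spots kept, 83 of 12067 tested genes were higher (0.688%) and 177 were lower (1.47%), together 2.15%. The kept data retained 39 of the 43 higher and 44 of the 60 lower genes. The log2 fold changes of the called genes ran from 1.01 to 4.04 (median 1.37) and from -1.01 to -4.06 (median -1.40), and the median gap between the 2 arrays was 0.17 in each direction and 0.18 over all genes tested, whose median log2 fold change was 0.04. The adjusted p-values lay close to the threshold, from 0.0151 to 0.05, and leaving out either wild type array or either mutant array gave 0 calls in both directions. A fit to the 2 wild type arrays alone called 105 higher and 293 lower genes, which is every gene that met the conditions on fold change and sign.

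**Figure D1:**
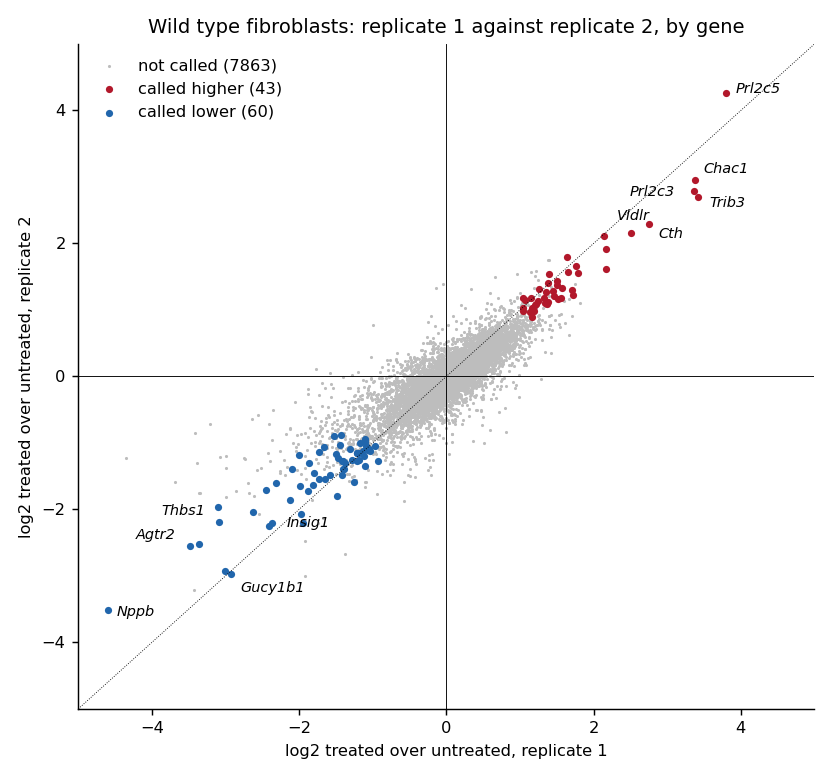
Log2 treated over untreated of each tested gene in wild type cells, replicate 1 on the x axis and replicate 2 on the y axis, with the 43 genes called higher in red, the 60 called lower in blue and the others in grey; the dotted line marks equal values. The called genes lie near the line in both directions, with Prl2c5 (3.80 and 4.27) and Nppb (-4.60 and -3.52) at the ends.

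Prl2c5, a proliferin of the placental prolactin family, had values of 3.80 and 4.27, and its mean rose by 4.04 (SE 0.23, limma adjusted p = 0.0151), a 16.4-fold difference and the largest rise among the called genes. Prl2c3, another proliferin, stood at 3.37 and 2.80 and rose by 3.08 (SE 0.23, adjusted p = 0.0181). Proliferin genes are near-identical copies of one another, and whether their probes tell them apart was not tested. Of the 5 measured members of the prolactin family, these were the 2 called, compared with 0.54% higher over all genes. The placental lactogen gene Prl3b1 stood at -0.46 and -0.23. Chac1, Trib3, Cth, Vldlr and Psph, with log2 fold changes of 2.04 to 3.16, belong to the targets of ATF4 and are described with them.

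Several further genes of the upper end act outside the classical antioxidant response. Car6, a secreted carbonic anhydrase, had values of 2.14 and 2.11. Uchl1, a ubiquitin hydrolase best known from neurons, stood at 2.17 and 1.62, and Dhrs3, a retinal reductase, at 1.64 and 1.79. Niban1, a stress-induced regulator of translation, had 1.76 and 1.67. Uchl1 had the widest gap between arrays of these 4 genes. Slco2a1, a prostaglandin transporter, had 1.79 and 1.55 and was no longer called with the marked spots kept. Tspan12, a tetraspanin, had 1.65 and 1.57, Ero1a, the oxidase that passes electrons from disulfide formation to oxygen in the endoplasmic reticulum, 1.71 and 1.30, and Zfand2a, an arsenite-inducible zinc finger gene, 1.40 and 1.55. In a fit of the separate channels with a dye term, read with wild type RNA in Cy5 of the untreated arrays as the labels have it, 7 of the higher genes named here changed direction, namely Prl2c5 (-0.90), Prl2c3 (-0.82), Vldlr (-0.74), Niban1 (-3.64), Dhrs3 (-3.92), Slco2a1 (-0.27) and Ero1a (-0.42), and with the other reading none of them did, though 0 genes were called.

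**Figure D2:**
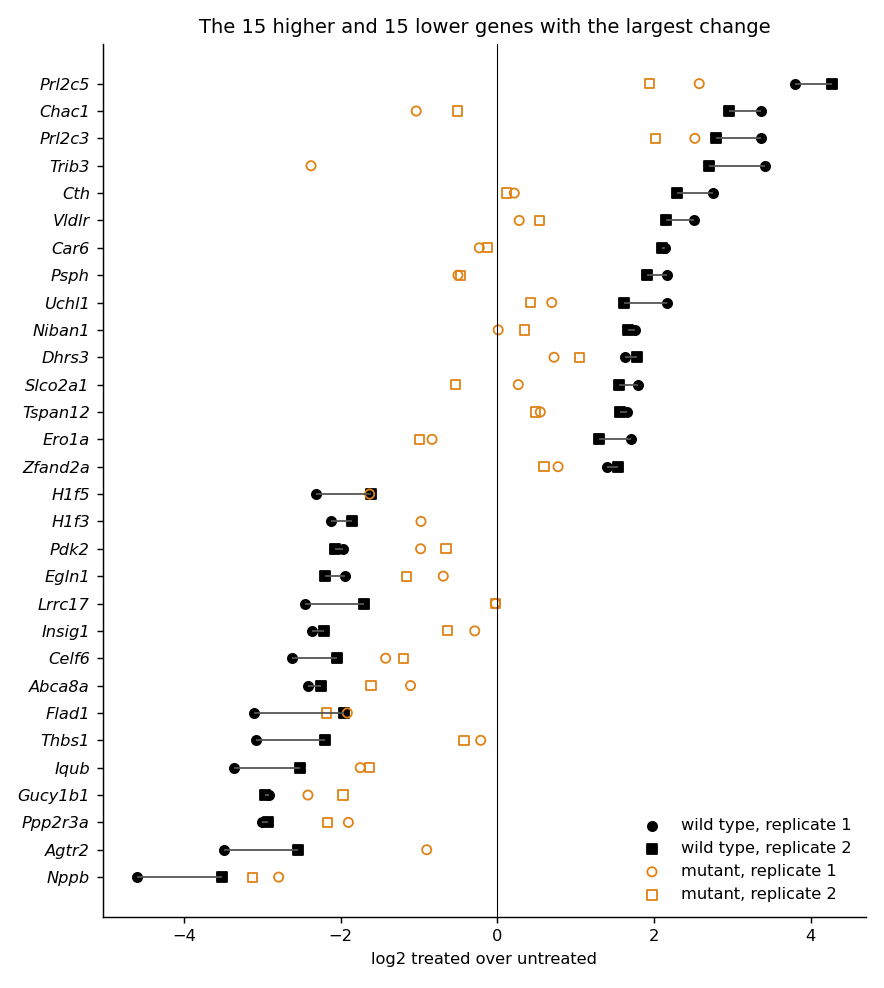
Log2 treated over untreated (x axis) of the 15 higher and the 15 lower genes with the largest change in wild type cells, with 1 row per gene, filled black symbols for the 2 wild type arrays and open orange symbols for the 2 mutant arrays; a missing orange symbol is a marked spot. The wild type values of each gene lie on one side of 0, while the mutant values of Chac1, Psph and Ero1a lie on the other side and those of Nppb and Gucy1b1 on the same side.

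The targets of ATF4 were the list with the most higher genes. This list, like all lists here, was written by hand with earlier results of these data known. Its counts beside the shares of all genes are a description and no test. Of 16 tested members 6 rose and 0 fell when marked spots were left out, compared with 0.54% and 0.753% of all genes tested, and the median log2 fold change was 0.95. When they were kept, all 27 members of the list were tested, 10 rose and 0 fell (0.688% and 1.47% of all genes), and the median was 0.81. Both arrays were above 0 for 22 of the 27 members, a share of 81.5% compared with 41.2% over all genes.

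Chac1, which cleaves glutathione, led the list with 3.37 and 2.95 (log2 fold change 3.16, SE 0.22, adjusted p = 0.0181). Trib3, a pseudokinase that restrains ATF4 and AKT, had 3.42 and 2.71, and Cth, the enzyme that makes cysteine from cystathionine, 2.75 and 2.30. Vldlr, a lipoprotein receptor, stood at 2.51 and 2.16, and its other probe had the same sign. The serine and folate pathway gave Psph, the last step of serine synthesis, with 2.16 and 1.92, and the mitochondrial folate enzyme Mthfd2 with 1.34 and 1.11. These 6 genes were called with and without the marked spots.

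A further 4 targets were called only with the marked spots kept. Ddit3, which encodes CHOP, had 1.57 and 1.33 (log2 fold change 1.45, SE 0.17, adjusted p = 0.0287). Asns, the asparagine synthetase gene, had 1.48 and 1.37, Nupr1, a small stress-induced chromatin protein, 1.54 and 1.11, and Pycr1, a proline synthesis enzyme, 1.17 and 1.00. The wild type spots of Pycr1 carried no mark. Its values were the same without the marked spots, and only the adjusted p differed. Atf4 itself, whose control is mainly translational, was marked on both arrays and stood at -0.21 and -0.42 with the spots kept. Other enzymes of serine synthesis did not reach a fold change of 2, with Psat1 at 0.88 and 0.81 and Phgdh at 0.36 and 0.51. Sesn2, a sestrin listed with these targets, went the other way at -3.24 and -1.47 and was not called (adjusted p = 0.113).

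The windows before the starts of Chac1, Vldlr and Asns are shown because these called targets hold the letters TGATGNAA, the core of the composite element that ATF4 and C/EBP factors bind. They are 250 bases of RefSeq sequence on GRCm38.p6 that end at the base before the annotated start, 5′ to 3′ on the strand of the gene. The capitals mark the match, which lies on the opposite strand in Chac1 and Vldlr (written TTGCATCA) and on the printed strand in Asns (TGATGAAA).
Chac1, chr2:119350992-119351241, plus strand: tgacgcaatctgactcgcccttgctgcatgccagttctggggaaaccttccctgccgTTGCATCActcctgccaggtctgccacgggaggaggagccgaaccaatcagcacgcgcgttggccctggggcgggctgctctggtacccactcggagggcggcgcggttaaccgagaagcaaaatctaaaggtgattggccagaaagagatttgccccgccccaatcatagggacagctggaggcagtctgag
Vldlr, chr19:27216770-27217019, plus strand: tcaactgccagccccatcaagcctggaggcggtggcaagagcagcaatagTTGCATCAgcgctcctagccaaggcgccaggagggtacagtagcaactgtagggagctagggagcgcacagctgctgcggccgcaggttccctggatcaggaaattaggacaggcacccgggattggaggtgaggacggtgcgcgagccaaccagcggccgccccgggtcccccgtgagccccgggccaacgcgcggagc
Asns, chr6:7693210-7693459, minus strand: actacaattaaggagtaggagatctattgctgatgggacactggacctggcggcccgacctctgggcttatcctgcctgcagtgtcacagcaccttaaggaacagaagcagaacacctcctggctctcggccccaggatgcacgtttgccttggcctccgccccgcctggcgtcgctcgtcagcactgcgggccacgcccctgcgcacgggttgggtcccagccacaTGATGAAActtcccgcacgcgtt
The match ends 186 bases before the start in Chac1, 193 in Vldlr and 16 in Asns. Searched on both strands, the letters were found before the start of 5 of the 9 called targets that have a window, of 8 of the 25 tested targets (32%), of 2 of 35 other genes called higher (5.71%) and of 1056 of the 27025 genes in the table (3.91%). Of 13 patterns of letters that were searched, the 3 described here were chosen after their matches were seen, and a match is no evidence of binding.

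**Figure D3:**
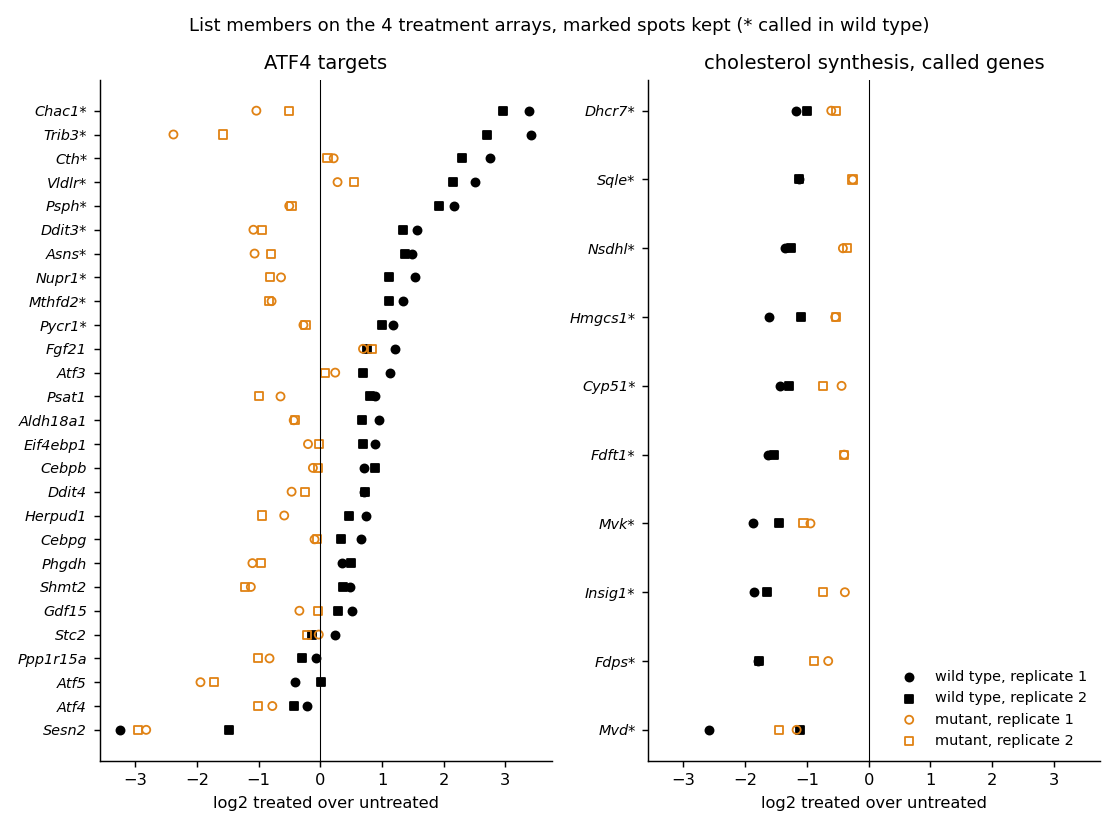
Log2 treated over untreated (x axis) of each ATF4 target (left) and of the 10 genes of cholesterol synthesis that were called lower (right) on the 4 treatment arrays with the marked spots kept, with filled black symbols for wild type and open orange symbols for mutant cells, circles for replicate 1, squares for replicate 2 and an asterisk for a gene called in wild type cells. In wild type cells 22 of 27 ATF4 targets were above 0 on both arrays, and the cholesterol genes, shown because they were called, lie below 0 on both.

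Glutathione synthesis and turnover, which shares Chac1 and Cth with the ATF4 list, had these 2 higher and 0 lower genes among 10 tested members (median 0.47), compared with 0.54% and 0.753% of all genes. Gclc, the catalytic subunit of the rate-limiting enzyme of glutathione synthesis, had 0.98 and 0.84, short of a fold change of 2 (adjusted p = 0.0509). With the marked spots kept, 9 of 11 members were above 0 on both arrays (81.8%, compared with 41.2% of all genes). The amino acid transporters gave 0 calls among 9 tested members, with the cationic transporter gene Slc7a3 at 0.85 and 0.97, and the aminoacyl-tRNA synthetases 0 among 7, with Aars at 0.77 and 0.68 from marked spots.

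The targets of NRF2 depended on the marked spots. With them left out, 0 of 17 tested members were called in either direction and the median was 0.34. With them kept, 5 of 27 rose and 0 fell, compared with 0.688% and 1.47% of all genes, and the median was 0.51, compared with 0.02. Nqo1, the quinone reductase that serves as the textbook NRF2 target, had 1.61 on replicate 1 and a marked value of 1.23 on replicate 2 (log2 fold change 1.42 with the spot kept, SE 0.17, adjusted p = 0.0293). Taldo1, an enzyme of the pentose phosphate pathway, had 1.27 and 1.33, Ugdh, which makes UDP-glucuronate, 1.15 and 1.15, and Txnrd1, the cytosolic thioredoxin reductase, 1.05 and 1.03. Sqstm1, the autophagy receptor p62, had 0.95 and 1.38. Hmox1, the heme oxygenase gene, was not called and stood at 0.20 and 0.44, and the ferritin light chain gene Ftl1 at -0.69 and -0.58. Catalase (Cat) stood at 0.24 and 0.42. Txnrd1 was the 1 called gene among 22 antioxidant enzymes with the spots kept (0 of 11 with them left out), and 14 of the 22 were above 0 on both arrays (63.6%, compared with 41.2% of all genes), with log2 fold changes from -0.91 (Glrx) to 1.04 (Txnrd1).

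Metallothioneins are small zinc-binding proteins rich in cysteine. Mt2 was marked on 1 array and had 1.79 and 2.19 with the spot kept (log2 fold change 1.99, SE 0.17, adjusted p = 0.0144). The brightest probe of Mt1 had 0.97 and 1.37 with marked spots kept and was not called (adjusted p = 0.0611), whereas a dimmer probe without marks stood at 0.42 and 0.07. Mt3, the neural form, had -0.78 and -0.74. The window before Mt2 is shown with the letters TGCACNC, the core of the element that the zinc sensor MTF1 binds, in capitals, once on each strand.
Mt2, chr8:94172368-94172617, plus strand: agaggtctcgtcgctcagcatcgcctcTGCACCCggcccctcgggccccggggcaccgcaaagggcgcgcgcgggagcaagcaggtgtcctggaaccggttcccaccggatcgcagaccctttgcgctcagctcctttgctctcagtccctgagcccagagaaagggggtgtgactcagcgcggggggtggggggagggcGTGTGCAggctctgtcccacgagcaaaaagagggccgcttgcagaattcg
These letters are common, being present in 11.8% of all windows, and were found before Mt1 and Mt2 but not in the window of Mt3.

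Among the genes that fell, Nppb, which encodes brain natriuretic peptide, had the largest change, at -4.60 and -3.52 (log2 fold change -4.06, SE 0.35, adjusted p = 0.0228). It was the 1 call among 3 tested natriuretic peptides and receptors, compared with 0.753% lower over all genes. Agtr2, the angiotensin II type 2 receptor that is abundant in fetal mesenchyme, had -3.49 and -2.55, and Gucy1b1, a subunit of the nitric oxide receptor guanylate cyclase, -2.92 and -2.97. The treated signal of Gucy1b1 was not well above background on either array. This signal was at least 7.30-fold lower, a bound taken against the dimmest signals that were well above background. The same held for Egln1, the prolyl hydroxylase PHD2 that marks HIF1A for degradation, which had -1.94 and -2.21 and a signal at least 3.57-fold lower. These bounds do not allow for the preference of a probe for a dye, described below. With mutant RNA read in Cy5 of the untreated arrays, the ratio of Cy5 over Cy3 between untreated samples was -2.06 for Gucy1b1 and -0.79 for Egln1. Agtr2, Abca8a and Insig1 were well above background in treated cells on 1 array.

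The remaining genes at the lower end had mixed functions. Ppp2r3a, a regulatory subunit of protein phosphatase 2A, had -3.01 and -2.93, Iqub, a cilium gene, -3.36 and -2.52, Flad1, which makes FAD, -3.10 and -1.96, and Celf6, an RNA-binding splicing regulator, -2.62 and -2.04. Abca8a, a lipid transporter, stood at -2.41 and -2.26, Lrrc17, a secreted leucine-rich repeat protein, at -2.45 and -1.71, and the pyruvate dehydrogenase kinase Pdk2 at -1.97 and -2.08. The linker histones H1f3 and H1f5 had -2.12 and -1.86, and -2.31 and -1.61. Replicate 1 was the more extreme array in 12 of the 15 genes with the largest decrease. With the marked spots kept, Ppp2r3a was no longer called. Abca8a (0.68) and the integrin gene Itgav (1.64) changed direction in the fit of separate channels under the labels' reading.

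Cholesterol synthesis was the list with the most lower genes. It too was written with earlier results of these data known, so its counts beside the shares of all genes are no test. Of 12 tested members 4 fell and 0 rose when marked spots were left out, compared with 0.753% and 0.54% of all genes, and the median was -1.0. When they were kept, 10 of 20 fell and 0 rose (1.47% and 0.688% of all genes), and the median was -1.11. Both arrays were below 0 for 19 of 20 members, a share of 95% compared with 36.1% over all genes. Insig1, which retains the SREBP complex in the endoplasmic reticulum and is itself an SREBP target, had -2.37 and -2.21, a log2 fold change of -2.29 (SE 0.20, adjusted p = 0.0227). Mvk, the mevalonate kinase, had -1.99 and -1.65, Sqle, the squalene epoxidase, -1.13 and -1.13, and Dhcr7, which closes the pathway, -1.18 and -1.0.

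The other 6 calls of the pathway rested on kept data. Mvd, a decarboxylase of the mevalonate arm, had -2.59 and -1.11, Fdps, the farnesyl diphosphate synthase, -1.80 and -1.78, Fdft1, the squalene synthase, -1.64 and -1.53, Cyp51 -1.44 and -1.30, Hmgcs1 -1.61 and -1.10 and Nsdhl -1.36 and -1.25. Srebf2, the factor that controls the list, was not called and stood at -0.16 and -0.38. Of the fatty acid list 0 of 15 tested members were called, compared with 0.753% lower and 0.54% higher over all genes. With the spots kept 5 of 21 fell and 0 rose (1.47% and 0.688% of all genes). The 5 were Elovl6, Fads1, Acly, Scd2 and Scd1, with log2 fold changes from -1.68 to -1.03. Fasn, the fatty acid synthase, was not called at -0.64 and -0.40.

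The window before Hmgcs1, the first dedicated enzyme of the pathway, is shown because it was the 1 of 7 called cholesterol genes with a window that holds the letters TCACNCCAC of a sterol regulatory element. The match is in capitals and ends 129 bases before the start.
Hmgcs1, chr13:119690101-119690350, plus strand: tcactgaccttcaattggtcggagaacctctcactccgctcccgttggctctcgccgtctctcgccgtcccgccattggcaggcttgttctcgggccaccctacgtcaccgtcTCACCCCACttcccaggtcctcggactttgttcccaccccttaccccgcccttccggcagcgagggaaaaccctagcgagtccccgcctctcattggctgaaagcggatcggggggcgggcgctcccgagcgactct
The same letters were found in 1.22% of all windows.

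Genes of the extracellular matrix leaned downward, with few calls. Under median centring, which moved the median of all genes to 0.32, the medians of collagens (0.04), contractile genes (0.01) and histones (0.13) lay above 0, though below that of all genes. Over all genes 0.753% fell and 0.54% rose, and with the spots kept 1.47% and 0.688%. The counts of this and the next paragraph stand against these shares. Among collagens 1 of 13 tested members fell (median -0.39), and with the spots kept 2 of 20 (median -0.41). These were Col5a1, a chain of the fibril-nucleating collagen V, at -1.40 and -1.27, and, with the spots kept, Col3a1 at -2.32 and -0.91, where replicate 1 carried most of the change. Col1a1, the main chain of bone and skin, had -0.58 and -0.07 by its brightest probe. Among matricellular and adhesion genes 1 of 17 tested members fell (median -0.59). This was Thbs1, whose unmarked probe read -3.08 and -2.20, while its brightest probe, with marked spots kept, read -1.58 and -0.98 and was not called. With the spots kept 4 of 28 fell, Ltbp2, Fbln5, Fbn1 and Postn, with log2 fold changes from -1.24 to -1.09, and 20 of 28 were below 0 on both arrays (71.4%, compared with 36.1% of all genes). Fibronectin (Fn1) stood at -1.42 and -0.84 by its brightest probe (adjusted p = 0.0887) and at -0.88 and -0.42 by its unmarked one. In collagen processing 0 of 10 tested members were called, and with the spots kept P4ha1, a prolyl hydroxylase, fell (-1.18 and -1.14).

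Proteases and adhesion receptors moved in both directions. Plaur, the urokinase receptor, rose (1.04 and 0.99), and Plat, tissue plasminogen activator, fell (-1.52 and -0.90), the latter without a call when marked spots were kept. These were 1 higher and 1 lower gene among 16 tested proteases and inhibitors. With the spots kept 2 of 21 were called higher and 0 lower. The other higher gene was the stromelysin Mmp11 (1.09 and 1.12), whose wild type spots carried no mark, so that only its adjusted p differed. Among integrins and cadherins 1 of 11 fell, Itgav (-1.10 and -0.97), the alpha chain of vitronectin receptors, and with the spots kept 2 of 20, the other being the cadherin gene Cdh4 (-1.22 and -0.94). Of 9 contractile genes 0 were called and 0 were above 0 (median -0.44), with Acta2, smooth muscle actin, at -0.67 and -0.74 by an unmarked probe and at -1.51 and -1.25 by its brightest probe with the spots kept (adjusted p = 0.0788). With the spots kept Tpm2 and Acta1 fell, at -1.84 and -1.77 and at -1.09 and -1.14. Id1, an inhibitor of basic helix-loop-helix factors and a BMP target, rose (1.38 and 1.40) and was the 1 call among 13 genes of TGF-beta and BMP signalling. With the spots kept the BMP antagonist gene Grem1 rose as well (1.40 and 1.42). Fgf2, a fibroblast mitogen, fell (-1.43 and -0.88) as the 1 call among 11 growth factor genes. Xist, the RNA that coats the inactive X chromosome of female cells, fell (-1.26 and -1.59, adjusted p = 0.0415) and stood at 0.29 and -0.13 in mutant cells. The labels do not give the sex of the embryos, and its part in the other values was not tested.

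**Figure D4:**
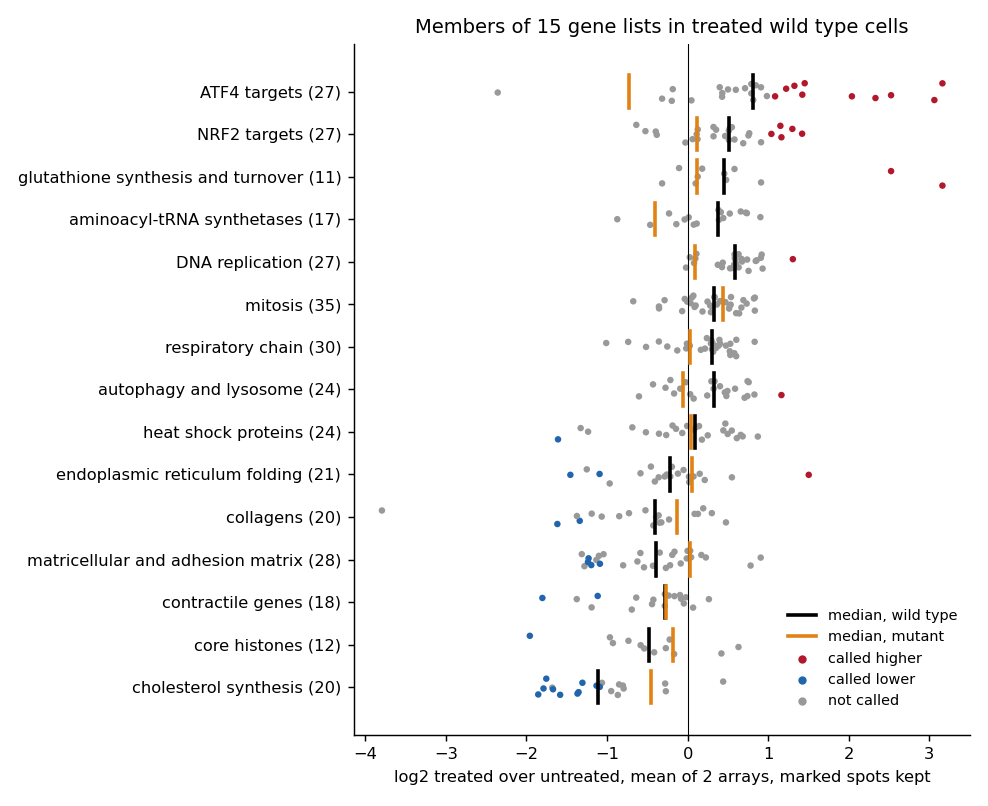
Log2 treated over untreated (x axis, mean of the 2 wild type arrays, marked spots kept) of each measured member of 15 gene lists, with the number of members in brackets; red and blue points were called higher and lower, grey points were not called, and black and orange bars mark the medians of wild type and mutant cells. The ATF4 targets (median 0.81) and cholesterol synthesis (median -1.11) lie farthest from 0 in wild type cells among the 15 lists drawn.

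Genes of DNA replication leaned upward without passing the test one by one. The counts of this paragraph stand against 0.54% higher and 0.753% lower genes over all tested, and 0.688% and 1.47% with the spots kept. Of 18 members tested without the marked spots, 0 were called and 17 were above 0 (median 0.58). With them kept, 24 of 27 were above 0 on both arrays (88.9%, compared with 41.2% of all genes) and Cdt1, which licenses origins, was the 1 call (1.34 and 1.28). Mcm2 and Mcm7, of the replicative helicase, had 0.55 and 0.31, and 0.88 and 0.96. Of the mitosis list 0 of 26 were called (median 0.29), with cyclin B1 (Ccnb1) at 0.67 and 0.66. Of the histone list, which holds 13 of the many core and linker histone genes, 1 of 8 tested members fell (H1f5), the median was -0.22 and, with the spots kept, 10 of 12 were below 0 on both arrays (83.3%, compared with 36.1% of all genes). Among histone genes outside the list H1f3 and H2bc12 (-1.38 and -1.30) fell too, and with the spots kept H2ac15 (-1.67 and -1.44), H2ac13 (-1.34 and -1.12) and H2bc14 (-1.13 and -1.10), which were chosen after their values were seen. Histone genes are near-identical copies, and whether their probes tell them apart was not tested.

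The next lists stand against 0.54% higher and 0.753% lower genes over all tested, and 0.688% and 1.47% with the spots kept. The p53 targets gave 0 calls among 10 tested members, with Cdkn1a, the inhibitor p21, at 0.52 and 0.49 from 1 marked and 1 unmarked spot. With the spots kept, 1 of 23 rose, the BH3-only gene Pmaip1 (1.30 and 1.18). In glycolysis 2 of 10 fell, the phosphofructokinase Pfkl (-1.41 and -1.28) and the pyruvate dehydrogenase kinase Pdk1 (-1.50 and -1.17), around a median of 0.02. Of endoplasmic reticulum folding genes, Ero1a was the 1 call among 11, while the chaperone gene Hspa5 stood at -0.30 and -0.22. With the spots kept 2 of 21 fell, Xbp1, a factor of the unfolded protein response (-1.50 and -1.41), and the lectin chaperone gene Calr (-1.23 and -0.95).

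In a further 13 lists, without the marked spots, 0 genes were called among 18 of the respiratory chain (median 0.23), 10 cytosolic ribosomal proteins (0.18), 12 proteasome subunits (0.18), 7 heat shock proteins (0.14), 7 interferon-stimulated genes (-0.25), 15 immediate early genes (0.08), 9 chemokines and cytokines (0.09), 5 CDK inhibitors (-0.17), 8 genes of Notch and Wnt signalling (-0.03), 9 of the BCL2 family (0.01), 11 of base excision repair (0.14), 8 RecQ helicases and partners (0.19) and 11 of autophagy and lysosome (0.33). Wrn itself stood at 0.05 and -0.02. At 0.54% higher and 0.753% lower over all genes, lists of this size would hold few calls or none, so a count of 0 does not place them at the background. With the spots kept, 2 of 12 chemokines and cytokines were called higher (0.688% of all genes), Ccl20 (1.74 and 1.38) and Cxcl2 (1.42 and 1.34). The wild type spots of these 2 genes carried no mark, and only the adjusted p differed. In the kept data Sqstm1 and Pmaip1 were the 1 call each of the autophagy and BCL2 lists. Of 30 respiratory chain genes 70% were above 0 on both arrays, compared with 41.2% of all genes. Hspb8, a small heat shock protein, fell with the spots kept (-1.66 and -1.56), and so did the Notch target Hes1 (-1.11 and -1.05).

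The labelled cell type was checked against its markers. Of 11 fibroblast markers 9 had a probe above the intensity minimum, and Fap and Lum did not. Vim stood at 0.78 and 1.11, Col1a2 at -0.80 and -0.25, Dcn at -1.49 and -0.65, Pdgfrb at -1.06 and -0.51 and Thy1 at -0.99 and -0.67 with the spots kept, and 7 of the 9 were below 0 on both arrays. The summed signal of the 9 genes, after normalization of the channels, was 71000 and 62300 in untreated and 79700 and 90000 in treated cells. For 3 chondrocyte markers, Acan, Col2a1 and Sox9, it was 11300 and 10100 in untreated and 3590 and 5490 in treated cells, and Col2a1 fell (-1.49 and -0.81). It was 22600 and 16600 against 10200 and 8830 for 4 smooth muscle and myofibroblast markers, of which Acta2 had -1.51 and -1.25 and Cnn1 a mean of 0.07 (median of the 4 -0.18, 2 below 0 on both arrays), and 7030 and 6670 against 4230 and 5240 for 6 skeletal muscle markers. In these 3 lists both treated values lay below both untreated ones. Macrophage markers summed to 444 and 549 untreated and 454 and 642 treated, with Adgre1, Cd68, Lyz2 and Mrc1 below the intensity minimum. Fewer cells of a type and less RNA per cell cannot be told apart in such cultures, and the part of these cells in the fall of matrix and contractile genes was not tested.

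The wild type response was set against that of the Wrn mutant cells, which share no sample with it. In the same limma fit 0 of 6998 genes were called in mutant cells (0% in either direction, smallest adjusted p over probes 0.118, 4945 of 41052 probes at an unadjusted p of 0.05), and 0 of 5736 genes had a called difference between the responses (smallest adjusted p = 0.159). At an unadjusted p of 0.05 and a 2-fold difference 146 genes passed, of which 69 had the higher ratio in wild type cells and 77 the higher ratio in mutant cells. Of the 43 genes that rose in wild type cells, 41 had values on both mutant arrays, and 31 of these were above 0 on both (75.6%, compared with 41.5% of 6976 genes) and 5 below 0. Of the 60 that fell, 54 had values on both, with 48 below 0 on both (88.9%, compared with 31.9%) and 4 above 0. Treated cells were in Cy5 on the arrays of both genotypes, so the preference of a probe for a dye enters both alike. The gap between the 2 mutant arrays also enters the spread used for the wild type calls, so genes with close mutant values were called more readily. The part of either in this agreement was not tested.

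The medians of the ATF4 targets had opposite signs in the 2 genotypes. From data with the marked spots kept, the median was 0.81 in wild type and -0.72 in mutant cells, and 23 of 27 were below 0 on both mutant arrays, a share of 85.2% compared with 37.8% of all genes. Chac1 had -1.03 and -0.50 in mutant cells, where it had 3.37 and 2.95 in wild type cells. With the marked spots left out, the difference of 3.93 (SE 0.31) had an unadjusted p of 3.9e-06 in limma's fit and the smallest adjusted p, 0.159. In the same data the difference for Psph, with -0.50 and -0.47 in mutant cells, was 2.52 (SE 0.24, adjusted p = 0.162). For Ero1a, with -0.83 and -0.99, it was 2.41 (SE 0.25, adjusted p = 0.164). With the spots kept, limma's adjusted p for Chac1 was 0.0798. Trib3 then had -2.38 and -1.58 in mutant cells and a difference of 5.04 (SE 0.36, adjusted p = 0.0785). A fit to the 4 treatment arrays alone, with the spread of the untreated arrays left out, called a difference for 140 genes. Mt2 stood at -0.55 and -0.28 in mutant cells with the spots kept. The proliferins were above 0 in both genotypes, with Prl2c5 at 2.58 and 1.95 and Prl2c3 at 2.52 and 2.02 in mutant cells. Their differences of 1.77 (SE 0.33) and 0.81 (SE 0.32) had adjusted p-values of 0.47 and 0.839 in limma's fit without the marked spots. With the spots kept, cholesterol synthesis was below 0 in both genotypes, with a median of -0.45 in mutant cells and 19 of 20 members below 0 on both mutant arrays.

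No array of the treatment comparisons had the dyes exchanged, so the preference of a probe for a dye enters each value. The untreated arrays allow a partial check, since their Cy5 channel can be set against the Cy3 channel of untreated cells on the treatment arrays. This ratio, called a dye ratio here, is taken between different arrays, replicates and extraction sessions. It holds differences between these as well as between the dyes, and their parts were not separated. The labels place wild type RNA in the Cy5 channel of the untreated arrays. The direction of the study's own list of genotype differences places mutant RNA there, and this conflict could not be settled from the labels. If it was mutant RNA, the ratio of Cy5 over Cy3 between untreated mutant samples had a standard deviation of 0.50 over the 7966 genes, and if it was wild type RNA, that between untreated wild type samples had 0.88. Under the first reading, 14 of the 60 lower genes (23.3%) had a dye ratio of -1 or below, compared with 3.62% of all genes, and 0 of the 43 higher genes did, while 1 higher gene had a ratio of 1 or more (2.33%, compared with 0.891%). Nppb had a ratio of -2.7, Gucy1b1 -2.06, Flad1 -1.86, Ppp2r3a -1.62, Celf6 -1.43, Iqub -1.22 and H1f5 -1.13, and the part of the dye in their decrease was not tested. Agtr2 (0.37), Thbs1 (0.01), Lrrc17 (0.49), Insig1 (-0.25), Chac1 (0.68), Trib3 (0.45), Prl2c5 (0.20) and Prl2c3 (-0.12) had ratios within 1 of 0. After subtraction of the dye ratio 24 of the 43 higher and 33 of the 60 lower genes still differed by 2-fold or more in their direction. Under the second reading these numbers were 7 and 21, and dye ratios reached or passed the response in several named genes. Trib3 had 4.35, Dhrs3 4.35, Niban1 3.95 and Vldlr 2.49, each above its own response, and Thbs1 had -3.39, beyond its response of -2.64. Prl2c5 had 3.59 and Chac1 2.48, somewhat below theirs.

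**Figure D5:**
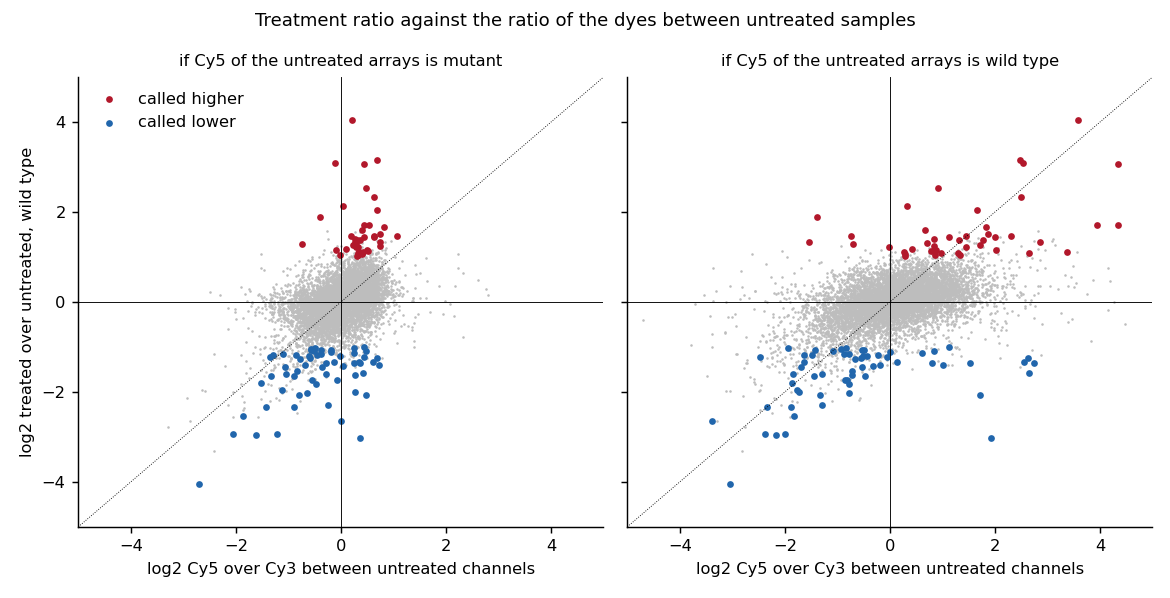
Log2 treated over untreated of each tested gene in wild type cells (y axis) against the log2 ratio of Cy5 over Cy3 between untreated samples (x axis), with Cy5 of the untreated arrays read as mutant (left) or as wild type (right); red and blue points were called higher and lower, and the dotted line marks equal values. On the left most red points lie within 1 of 0 on the x axis, while 14 blue points lie at -1 or below.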

How the data were processed

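RNA of treated and untreated cells was hybridized to Agilent Whole Mouse Genome 60-mer arrays. The deposited scanner files hold, per spot, the mean and background intensity in Cy3 and Cy5, flags (no unit) and Feature Extraction's log10 ratio of Cy5 over Cy3. The authors' table of the whole series holds log2 ratios, background subtracted and loess normalized with limma, and it correlated with the ratios computed here with r of at least 0.9995 per array. The log2 ratios used here were computed with limma 3.58.1 (R 4.3.3) from mean intensity minus local background, with loess within each array. Controls and outlier-marked spots were removed before the fit, saturated ones stayed in, and replicate spots of a probe were averaged. All 6 arrays were fitted together (lmFit and eBayes, a coefficient per comparison), with 3 residual and 4.18 prior degrees of freedom. The two-sided p-values of 40303 probes were adjusted by Benjamini-Hochberg. A probe needed a mean log2 intensity of 6. The study's adjusted p of 0.005 was known to leave 0 calls here, so 0.05 was used. Replicates are biological by the labels, and the number of arrays limits the precision.

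Probes were named through RefSeq accessions (20716 probes) or the file's gene name (5039), and 15419 stayed unnamed. The text names the 15 genes with the largest change in each direction, up to 4 called members of each hand-written list per direction, the first member of each list, and members that lost a spot to the flags. Genes called only with marked spots kept, and other members without a call, were chosen after their values were seen. Members and lists were chosen with earlier results of these data known. No set test was run. Dye ratios and lower bounds used channels after loess and Aquantile normalization. Promoter windows came from RefSeq (GRCm38.p6), and 0 columns of other samples were present. Files were read with version 1.17.8 of the R package data.table. Plots used matplotlib 3.10.9, with pandas 2.3.3 on Python 3.11.15. Some members of the lists are counted but not reported here by name.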

Additional observations from a re-analysis of the deposited data

How the results depend on the processing

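The numbers of higher and lower genes (43 and 60) depended on the processing. They became 0 and 0 at an adjusted p of 0.005, 95 and 227 at 0.1, 83 and 177 when marked spots stayed in, 83 and 181 from the deposited series table, and 20 and 19 with the marked spots also left out of the loess curve, an alternative chosen after seeing the data. Median centring gave 9 and 3, so that 75% of the calls were higher compared with 41.7%, and moved the median of all genes from 0.04 to 0.32. No background correction gave 27 higher genes, no intensity minimum 71 higher genes, and Feature Extraction's log ratio 30 lower genes. The share of higher calls was 32.2% with normexp, 32.5% without background correction, 53.1% with Feature Extraction's ratio and 31.9% with marked spots kept. The 2 wild type arrays alone, the 4 treatment arrays and array weights each gave 105 and 293, where every gene past the conditions on fold change and sign was called. Leaving out 1 array gave 0 to 105 higher and 0 to 293 lower genes, with 0 and 0 without either treated wild type or either treated mutant array and 105 and 293 without either untreated array. The extraction session as a random block gave 0 and 0; all 4 treatment arrays were of 1 session, so the 4 treatment arrays are the value within it.

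The replicate block gave 0 higher, 0 lower and 0 differing genes. The replicate numbers did not pair the samples (r = -0.04 between the deviations of same-numbered arrays). The number of genes that differed between genotypes (0) became 140 with the 4 treatment arrays, 135 with array weights, 78 with the session block, and 0 to 140 when 1 array was left out, with 140 without either untreated array. A fit of separate channels with a dye term gave 89 higher, 210 lower and 6 differing genes if Cy5 of the untreated arrays was wild type, and 0, 0 and 47 if it was mutant. Under the former 18 of the 90 genes called and measured there were also called, and 9 named genes changed direction: Prl2c5 (-0.90), Prl2c3 (-0.82), Vldlr (-0.74), Niban1 (-3.64), Dhrs3 (-3.92), Slco2a1 (-0.27), Ero1a (-0.42), Abca8a (0.68) and Itgav (1.64). Of the other values of the 41 called named genes under the alternatives, 468 kept the direction and passed the threshold on adjusted p. A further 370 kept the direction without passing it. The other conditions of a call were not applied in this count. With the marked spots kept, Slco2a1 and Ppp2r3a passed this threshold and were not called. Saturated spots, normexp, both channels above background and calls by any probe left the counts within 1.5 times, though under normexp 53 of the 103 called genes were called again. The cause of these shifts was not tested. The dim Cy5 channel limits the size of the lower genes.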
